A study of Mus musculus with 12 samples.

Results

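MT∆Ecad and PyMT-1099 LT are mouse breast cancer lines described as mesenchymal, and the comparison set out here is that of their RNA when both had received only a control siRNA. MT∆Ecad came from a mammary tumour of an MMTV-Neu mouse, in which the Neu oncogene, a rodent Erbb2, is driven in mammary epithelium, and its name marks the deletion of E-cadherin. PyMT-1099 LT came from a mammary tumour of an MMTV-PyMT mouse, in which the same promoter drives the polyoma middle T oncogene and its labels give no E-cadherin deletion; they do not spell out LT. Both lines were cultured in the same serum-containing medium and transfected for 48 hours with a non-targeting Dharmacon siRNA (siCtl), so the transfection is shared by the 2 groups. Each group held 2 libraries, called biological duplicates in the series text, out of 12 libraries in the series; the others are the same lines with an siRNA against Nrf2 (siNrf2) and the MMTV-PyMT line Py2T LT with either siRNA. Each genotype is represented by 1 line, so oncogene, E-cadherin deletion, mouse of origin and clone cannot be told apart, and every p-value measures the spread between cultures of these lines. PyMT-1099 LT lacked several mammary luminal markers, though it held others at higher levels than MT∆Ecad. It also held transcripts of genes known from kidney tubule, some also from other tissues, as given with the tissue check. Its mammary origin therefore rests on the labels. The identity of the line was not tested, and this bears on every difference reported against it.

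The genes compared were chosen by level alone: 11871 of 24454 genes had at least 1 CPM (a count scaled to the library's total reads) in at least 2 of the 4 libraries. Read totals were 27874077 and 35005191 for PyMT-1099 LT and 30866728 and 27088970 for MT∆Ecad, so 1 CPM stands for 27.1 to 35.0 reads. Differences are given as log2 of CPM + 1, MT∆Ecad minus PyMT-1099 LT, with their standard error (SE); this scale understates differences of genes with low levels. A gene was called when its limma p-value, adjusted over all tested genes by the Benjamini-Hochberg method, was under 0.05. Where a line had 0 reads of a gene, the fold difference is a lower bound set by the 3 reads per library that a count of 0 allows, and with few reads it is given with a 95% counting interval; both cover counting error only. In bulk RNA, fewer cells with a transcript and less transcript per cell cannot be told apart.

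Epithelial cells are held together by E-cadherin junctions and keratin filaments. In the epithelial-mesenchymal transition (EMT) they lose these contacts under repressors of the Snail, Zeb and Twist families and build a contractile cytoskeleton and a collagen-rich matrix. Mammary carcinoma lines reach such a state by several routes, including growth factor treatment and removal of E-cadherin itself, and may keep epithelial features to different degrees.

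The lines differed at most measured genes. In MT∆Ecad 3246 genes were called higher, which is 27.3% of those tested, and 3707 lower (31.2%). With a difference of at least 2-fold besides, 1665 genes (14.0%) were higher and 1466 (12.3%) lower. These counts were 1167 and 969 with a pseudocount of 5 in place of 1. At least 16-fold differences were called for 327 genes higher and 241 lower in MT∆Ecad. There were 133 genes with no read in either PyMT-1099 LT library and a mean of at least 10 CPM in MT∆Ecad, and 86 genes with the opposite pattern. The median difference of all tested genes was -0.06 and the median SE 0.131. The replicates of a line differed by a median of 0.119 (PyMT-1099 LT) and 0.109 (MT∆Ecad) on the log2 scale, against 0.474 to 0.492 between a library of one line and a library of the other.

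**Figure D1:**
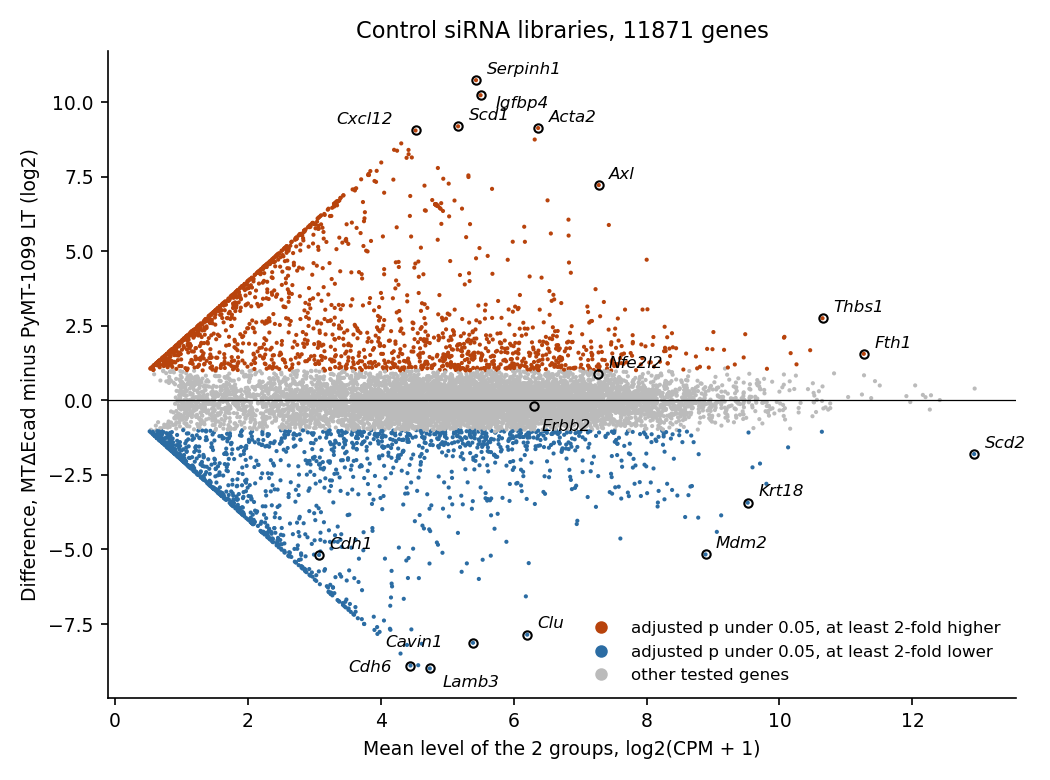
Each point is 1 of 11871 tested genes; the x axis is the mean level of the 2 control groups in log2(CPM + 1) and the y axis the difference, MT∆Ecad minus PyMT-1099 LT, in log2. Red and blue points were called with at least a 2-fold difference (1665 higher, 1466 lower), the diagonal edges are genes close to 0 in one line, and circles mark genes named in the text.

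The genes that name the models were measured first. Cdh1, which encodes E-cadherin (Entrez 12550, GRCm38 chromosome 8, 106603350 to 106670247), was at 47.8 and 51.6 CPM in PyMT-1099 LT and at 0.454 and 0.332 CPM in MT∆Ecad. The groups did not overlap, and the MT∆Ecad libraries held 23 Cdh1 reads in all. The difference was -5.19 (SE 0.151, adjusted p = 1.81e-09), a 125-fold lower level (95% counting interval 83.4 to 197). Erbb2, the receptor tyrosine kinase gene whose rodent form is the Neu oncogene, was at 80.7 and 85.6 CPM in PyMT-1099 LT and at 69.9 and 75.4 CPM in MT∆Ecad, a difference of -0.19 (SE 0.0895) that did not pass the test (adjusted p = 0.0944). No higher level of Erbb2 was called in the line from an MMTV-Neu tumour; whether reads of the transgene were counted under this gene was not tested. Nfe2l2, which encodes the antioxidant factor Nrf2, was higher in MT∆Ecad, with 208 and 209 CPM against 113 CPM in each PyMT-1099 LT library (difference 0.87, SE 0.118, adjusted p = 1.54e-04). Keap1, the adaptor that sends Nrf2 to degradation, was at 55.1 and 55.2 CPM in PyMT-1099 LT and at 71 and 81.8 CPM in MT∆Ecad (difference 0.46, adjusted p = 0.0145). The Keap1 call was lost without either PyMT-1099 LT library (adjusted p = 0.0595 and 0.0584) and without MT∆Ecad library 2 (0.105).

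The largest differences ran in both directions. Serpinh1, the collagen chaperone HSP47 (Entrez 12406, GRCm38 chromosome 7, 99345375 to 99353239), was at 0.0359 and 0.0571 CPM in PyMT-1099 LT, 3 reads in all, and at 1696 and 1866 CPM in MT∆Ecad (difference 10.73, SE 0.127, adjusted p = 2.45e-11). Collagen transcripts themselves were present in PyMT-1099 LT, as given below. Igfbp4, an IGF-binding protein, was at 0.287 and 0.314 against 1337 and 1816 CPM. Cxcl12, the chemokine ligand of Cxcr4, had no read in PyMT-1099 LT and 539 and 515 CPM in MT∆Ecad, at least 5455-fold higher. Serpine2, a secreted protease inhibitor, and Sfrp2, a secreted Wnt modulator, likewise had no read in PyMT-1099 LT and 369 and 413 CPM and 320 and 353 CPM in MT∆Ecad. The others among the 12 largest differences toward MT∆Ecad were the desaturase Scd1, smooth muscle actin Acta2, the aldehyde dehydrogenase Aldh3a1, netrin Ntn1, collagen Col8a1, non-muscle myosin Myh10 and the receptor Fgfr1, with differences of 8.14 to 9.18.

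Toward PyMT-1099 LT, the largest difference was that of Lamb3, the beta chain of the epithelial laminin-332 (Entrez 16780, GRCm38 chromosome 1, 193294353 to 193343878). It was at 619 and 581 CPM in PyMT-1099 LT and at 0.259 and 0.111 CPM in MT∆Ecad (difference -8.99, SE 0.111, adjusted p = 2.45e-11). Cdh6, a cadherin of kidney and neural epithelia, was at 450 and 499 CPM against no read, at least 4564-fold lower in MT∆Ecad. Myrf, a membrane-bound transcription factor known from myelinating glia, was at 372 and 371 CPM against 0 and 0.0738 CPM. Cavin1, a coat protein of caveolae, was at 722 and 676 CPM against 1.49 and 1.51 CPM. Clu, the secreted chaperone clusterin, was at 1205 and 1003 CPM against 2.66 and 5.17 CPM. The others of the 12 were Tm4sf4, Igfbp7, Rhox5, Cacna2d1, Lad1, Chrna1 and Celsr2, with differences of -8.88 to -7.69. Libraries of the lines did not overlap for these 24 genes, which the choice of genes required.

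**Figure D2:**
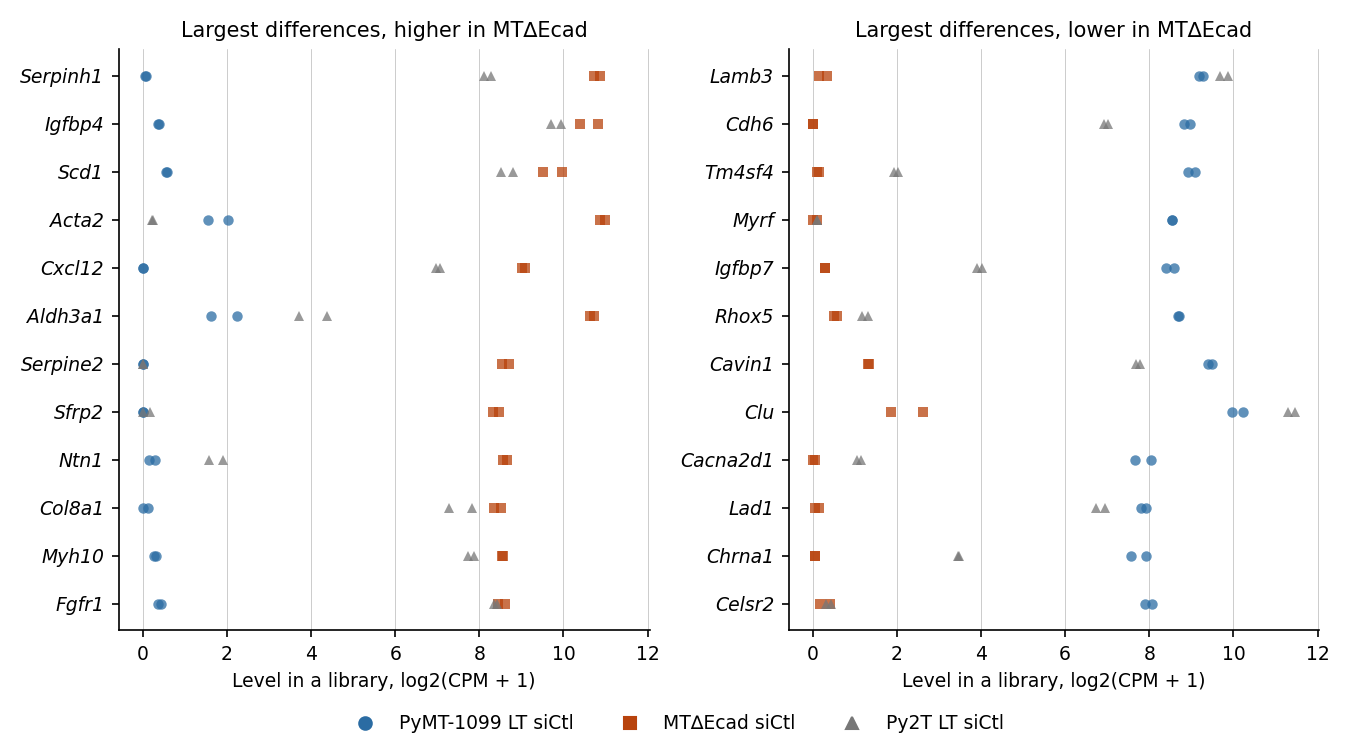
Levels in single control libraries, in log2(CPM + 1) on the x axis, of the 12 genes with the largest difference in each direction. Circles are the 2 PyMT-1099 LT libraries, squares the 2 MT∆Ecad libraries and triangles the 2 Py2T LT libraries; replicates lie close together, and Py2T LT is near MT∆Ecad for some genes (Fgfr1, Myrf) and near PyMT-1099 LT for others (Lamb3, Acta2).

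In CPM, the largest rise toward MT∆Ecad was that of Thbs1, the matricellular thrombospondin-1, from 640 and 593 to 4501 and 3834 CPM, followed by ferritin heavy chain Fth1, Acta2, the receptor Axl, Serpinh1, S100a4, Col4a1 and vinculin Vcl. The largest differences the other way were those of the desaturase Scd2 (13483 and 15593 CPM in PyMT-1099 LT, 3724 and 4647 CPM in MT∆Ecad), Mdm2, Nup107, Krt18, fibulin Fbln2, Rap1b, Ccn2 and Zdhhc16. Mdm2, Nup107 and Rap1b are neighbours on a chromosome, and Scd2 and Zdhhc16 lie in other stretches of neighbouring genes that are described further on.

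Genes of epithelial junctions were lower in MT∆Ecad for the most part. Of 24 tested members of a list of 37 junction and adhesion genes, 17 were called lower and 5 higher, and 14 and 3 with at least a 2-fold difference (58.3% and 12.5% of those tested, against 12.3% and 14.0% of all genes). The median difference was -1.26, against -0.06 for all genes. For every list that follows, the shares to read its counts against are 14.0% at least 2-fold higher and 12.3% at least 2-fold lower, or 27.3% and 31.2% for calls of any size. Lsr, a receptor of tricellular tight junctions, was at 53.2 and 51.1 CPM in PyMT-1099 LT and had no read in MT∆Ecad. Dsp, which links desmosomes to keratin, was at 284 and 327 against 7.78 and 6.79 CPM (difference -5.21, SE 0.19). Not all junction genes followed. The tetraspan desmosome protein gene Perp was at 7.39 and 5.91 CPM in PyMT-1099 LT and at 249 and 273 CPM in MT∆Ecad, and the claudin gene Cldn1 and the desmocollin gene Dsc2 were also higher there. Ctnnd1, the catenin bound to the cadherin tail, was at 468 and 448 against 462 and 476 CPM (difference 0.03, not called).

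Cadherin genes differed in both directions. Of 15 tested cadherin genes, 8 were called at least 2-fold lower and 4 at least 2-fold higher, and the median was -3.75. Those lower besides Cdh1 and Cdh6 were the planar polarity cadherins Celsr1 and Celsr2, the kidney cadherin Cdh16, the endothelial cadherin Cdh5, the intestinal cadherin Cdh17 and Fat2. Cdh16 was at 87.6 and 90.6 CPM in PyMT-1099 LT with no read in MT∆Ecad, and Cdh5 was at 90.6 and 88 CPM against 0 and 0.0369 CPM. The 4 higher were Fat4, Cdh13, Pcdh18 and Pcdh19, among which the giant protocadherin Fat4 was at 0.0359 and 0.0571 against 83.1 and 111 CPM. Cdh2, the N-cadherin that often replaces E-cadherin in EMT, was at 208 and 205 CPM in PyMT-1099 LT and at 215 in each MT∆Ecad library, a difference of 0.06 (SE 0.0942) that was not called.

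Keratins, the filament proteins of epithelia, also differed in both directions. Krt18 was at 2615 and 2218 CPM in PyMT-1099 LT and at 212 and 232 CPM in MT∆Ecad, while its usual partner Krt8 differed by -0.95 (1695 and 1487 against 770 and 874 CPM). Krt19, a luminal keratin, was at 125 and 120 CPM against 0.0648 and 0.111 CPM, and Krt20, known from gut and urothelium, at 124 and 120 CPM against none. Krt7 ran the other way, with 49.6 and 48.3 CPM in PyMT-1099 LT and 1227 and 1398 CPM in MT∆Ecad, as did the basal keratin Krt14 (14.4 and 13.1 against 142 and 123 CPM). In all, 5 of 11 tested keratins were called at least 2-fold lower and 3 at least 2-fold higher.

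The labelled tissue was checked against mammary markers. Of 10 luminal markers, 5 were at 0 in both PyMT-1099 LT libraries and 3 in both MT∆Ecad libraries, and Krt8 and Krt18 gave most of the summed 4347 to 4970 CPM in PyMT-1099 LT and 1137 to 1275 CPM in MT∆Ecad. Of 6 tested luminal markers, 4 were called lower in MT∆Ecad, Krt18, Krt19 and Cd24a among them, and 2 higher, Gata3 and Esr1. Cd24a was at 534 and 520 CPM in PyMT-1099 LT and at 57.9 and 60.9 CPM in MT∆Ecad. Gata3, the factor that maintains luminal identity, was at 0.825 and 0.886 CPM in PyMT-1099 LT and at 84.7 and 94.3 CPM in MT∆Ecad (difference 5.61, SE 0.117). Esr1, the oestrogen receptor, had no read in PyMT-1099 LT and 12.1 and 13 CPM in MT∆Ecad. Of 8 myoepithelial markers, 3 reached 1 CPM in both libraries of PyMT-1099 LT and 4 in MT∆Ecad, where Acta2, also made by other contractile cells, supplied most of the sum. Markers of leukocytes, endothelial cells, adipocytes and skeletal muscle, each list taken alone, summed to at most 251 CPM in any of the 4 libraries. Most of these sums came from Cdh5, Chrna1, Csf1r and Cd14 in PyMT-1099 LT, and from Lpl and Cd14 in MT∆Ecad. Of these 46 markers 22 and 26 were at 0 in both libraries of PyMT-1099 LT and of MT∆Ecad. The 11 fibroblast markers summed to 856 to 879 CPM in PyMT-1099 LT and 1843 to 2087 CPM in MT∆Ecad; of 6 tested, 4 were called higher and 2 lower, and the defining markers Dcn, Lum and Thy1 were at 0 in all 4 libraries. This list shares Pdgfra, Col1a1 and Col3a1 with the mesenchymal and collagen lists described next, and its part in their differences was not tested. Among kidney tubule genes, chosen after their values were seen, Pax2 was at 128 and 144 CPM, the nuclear receptor gene Hnf4a at 99.7 and 106 CPM and Cdh16 at 87.6 and 90.6 CPM in PyMT-1099 LT, with no read in MT∆Ecad.

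Of 16 tested EMT transcription factors, 9 were called at least 2-fold higher in MT∆Ecad and 1 lower (56.3% and 6.25%), and the median was 1.77. Prrx1, a homeobox factor of mesenchyme, had no read in PyMT-1099 LT and 46.7 and 54.5 CPM in MT∆Ecad, at least 523-fold higher. The forkhead gene Foxf1 (37.2 and 39.8 CPM), Twist1 (14.9 and 16.3 CPM), Twist2 (19.1 and 23.6 CPM) and Snai2 (4.08 and 4.95 CPM) were also without a read in PyMT-1099 LT. The core repressors Snai1, Zeb1 and Zeb2 had reads in both lines. Snai1 was at 40.2 and 47.7 against 36.3 and 46.4 CPM and Zeb2 at 46.7 and 59.1 against 69.8 and 47.3 CPM, with overlapping libraries and no call. Zeb1 was 0.52 higher (SE 0.19, adjusted p = 0.0399). Foxf2 was the 1 factor at least 2-fold lower, with 83.4 and 82 against 18.4 and 21.8 CPM.

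Mesenchymal structural and surface genes were higher in MT∆Ecad for 16 of 23 tested members and lower for 4, and 13 and 2 with at least a 2-fold difference (56.5% and 8.70%; median 1.86). Acta2, the actin of myofibroblasts, was at 3.09 and 1.94 CPM in PyMT-1099 LT and at 2013 and 1865 CPM in MT∆Ecad (difference 9.13, SE 0.181). Axl, a receptor tyrosine kinase tied to mesenchymal states, was at 11.6 and 11.9 against 1934 and 1855 CPM. The platelet-derived growth factor receptor gene Pdgfra was at 2.69 and 2.97 against 68.6 and 72.6 CPM. Classic markers were high in both lines: Fn1, fibronectin, was at 5389 and 5474 against 5248 and 5690 CPM (difference 0.01, not called) and Vim, vimentin, at 3718 and 3377 against 4972 and 5050 CPM (difference 0.50, adjusted p = 0.00621). Tagln, an actin-binding protein that often accompanies Acta2, went the other way, from 34.2 and 20.1 to 9.52 and 7.31 CPM.

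All 24 tested collagen genes were called, 14 higher and 10 lower in MT∆Ecad, against 27.3% and 31.2% of all tested genes. With at least a 2-fold difference, 12 were higher and 8 lower, against 14.0% and 12.3%. Col3a1, a fibrillar collagen, was at 14.2 and 11.6 CPM in PyMT-1099 LT and at 895 and 949 CPM in MT∆Ecad (difference 6.06, SE 0.119). Col12a1 was at 2.87 and 3.91 against 586 and 599 CPM, and Col8a1 at 0 and 0.0857 against 362 and 325 CPM. Col1a1, the major chain of collagen I, was lower in MT∆Ecad, with 210 and 252 CPM in PyMT-1099 LT against 8.94 and 12.7 CPM (difference -4.30, SE 0.248). The basement membrane chains also separated. Col4a1, Col4a2 and Col4a5 were higher in MT∆Ecad, whereas the partner chains Col4a3 (44.7 and 51.2 CPM against none) and Col4a4 (43.5 and 50.5 against 0.0324 and 0 CPM) were close to absent there. Among 15 laminin and basement membrane genes, 6 were at least 2-fold higher, such as Lama4 and Lamb1, and 6 at least 2-fold lower, such as Lamb3 and the nephronectin gene Npnt.

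Proteins that organize matrix were higher in MT∆Ecad for 24 of 37 tested members of the list and lower for 11 (21 and 8 with at least a 2-fold difference; median 1.47). The proteoglycan genes Sdc2 (0 and 0.0286 against 256 and 251 CPM) and Sdc3, the collagen cross-linking oxidase genes Loxl1 (1.97 and 1.37 against 252 and 306 CPM) and Loxl3, and Ogn and Gpc4 were among the higher. Ccn2, a secreted YAP and TGF-beta response gene, was lower, with 1968 and 1431 CPM in PyMT-1099 LT against 139 and 85.4 CPM. So were Tnc, tenascin, and the oxidase Loxl2. Of 31 proteases and inhibitors, 14 were at least 2-fold higher and 9 at least 2-fold lower. Plau, the urokinase, was at 0.0359 and 0.0571 against 156 and 128 CPM, while its receptor Plaur (248 and 212 against 105 and 65.2 CPM) was lower in MT∆Ecad. Mmp2, a gelatinase, was at 50 and 47.1 against 3.73 and 4.54 CPM.

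Integrin chains, the receptors for that matrix, showed calls in both directions (4 of 18 at least 2-fold higher and 5 lower), and the sign of their median changed between alternatives. The laminin receptor chain Itgb4 was at 105 and 103 CPM in PyMT-1099 LT and at 1.68 and 1.62 CPM in MT∆Ecad, and the collagen receptor chain Itga2 at 38.6 and 45.9 CPM against none. Itga8 had no read in PyMT-1099 LT and 42.5 and 50.6 CPM in MT∆Ecad, and Itga7 was at 0.933 and 1.63 against 88.1 and 92.8 CPM. The shared chain Itgb1 was at 1404 and 1328 against 1166 and 1119 CPM and was not called.

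Growth factor receptors changed in composition. Of 30 tested receptor tyrosine kinases, 13 were at least 2-fold higher in MT∆Ecad and 5 at least 2-fold lower (43.3% and 16.7%; median 0.74). Fgfr1, an FGF receptor, was at 0.287 and 0.343 CPM in PyMT-1099 LT and at 349 and 392 CPM in MT∆Ecad, and the Wnt-related pseudokinase Ptk7 at 0.0718 and 0.0571 against 205 and 234 CPM. The ephrin receptor Ephb2 (106 and 112 CPM) had no read in PyMT-1099 LT. Egfr, the EGF receptor, ran the other way with 188 and 205 against 17.8 and 18.3 CPM (difference -3.37, SE 0.113), and 2 of its ligands were lower with it: Tgfa at 63.2 and 63.9 against 2.14 and 2.51 CPM, and Ereg at 12.9 and 10.1 against 0.0324 and 0.0369 CPM. Growth factor ligands as a list went both ways (13 of 32 at least 2-fold higher, 8 lower). Gdnf and Angpt1 had no read in PyMT-1099 LT, with 32.1 and 25.2 CPM and 56.9 and 47.7 CPM in MT∆Ecad.

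Wnt pathway genes were at least 2-fold higher for 14 of 30 tested members and lower for 3 (46.7% and 10.0%; median 0.57). Among receptors, Fzd6 was at 0 and 0.0286 CPM in PyMT-1099 LT and at 182 and 207 CPM in MT∆Ecad. Among secreted antagonists, Sfrp2 and Sfrp1 (0 and 0.0571 against 85.8 and 92.7 CPM) and the Wnt deacylase Notum were higher, so ligands such as Wnt10a (no read against 20.2 and 22 CPM) and inhibitors of ligands were higher together. Ror1, a Wnt5a receptor, was lower with 41.4 and 42.3 against 4.86 and 4.8 CPM, and the ligand Wnt7b was at 517 and 507 against 234 and 270 CPM.

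Of 16 tested Notch pathway genes, 2 were at least 2-fold higher and 5 at least 2-fold lower. Notch1 was at 0.933 and 0.514 CPM in PyMT-1099 LT and at 63.4 and 76.9 CPM in MT∆Ecad, and Notch3 had no read against 24.7 and 35.1 CPM. The ligand Jag1 was at 492 and 496 CPM against 11.4 and 9.23 CPM (difference -5.46, SE 0.107), and Jag2 and the receptor Notch4 were also lower. The nuclear effector Rbpj was at 28.3 and 29.2 against 29 and 28.1 CPM and was not called, and the target genes Hey1, Nrarp and Hes1 were lower. In the TGF-beta and BMP list 12 of 36 were at least 2-fold higher and 9 lower (33.3% and 25%, against 14.0% and 12.3% of all genes), with a median of 0.08. The co-receptor Tgfbr3 had no read in PyMT-1099 LT and 60.4 and 60 CPM in MT∆Ecad, Tgfbr2 was at 110 and 95.6 against 464 and 476 CPM, and the ligands Bmp4 and Tgfb3 were higher. The ligand Tgfb1 was at 74 and 73.8 against 26 and 33.4 CPM.

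Developmental transcription factors set the lines apart, mostly in the direction of MT∆Ecad. Of 35 tested factors outside the Hox family, 19 were at least 2-fold higher and 5 lower (54.3% and 14.3%; median 1.28). The Iroquois genes Irx1 (79.9 and 121 CPM) and Irx2 (86.8 and 110 CPM) had no read in PyMT-1099 LT, and Irx3 was at 0.646 and 0.771 against 69.4 and 73.9 CPM. Tbx15, Lhx2 and Mef2c also had no read in PyMT-1099 LT. Pax2, a factor of the kidney and mid-hindbrain, was at 128 and 144 CPM in PyMT-1099 LT with no read in MT∆Ecad, and Foxd1 and Gata6 were without a read there too. Among Hox genes, Hoxa2 to Hoxa7, Hoxb2 and Hoxb3 were called higher in MT∆Ecad (Hoxa7 at 12.5 and 13.8 CPM against none), while Hoxa10, Hoxb6, Hoxb8, Hoxb9 and Hoxb13 were called lower.

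Genes of antigen presentation and interferon response were higher in MT∆Ecad in part of the lists. Of 25 tested genes of MHC class I presentation and the immunoproteasome, 12 were at least 2-fold higher and 2 lower (median 0.95). H2-D1, a classical class I heavy chain, was at 1.08 and 0.971 CPM in PyMT-1099 LT and at 219 and 246 CPM in MT∆Ecad (difference 6.85, SE 0.11), and H2-K1 at 14.6 and 14.8 against 131 and 158 CPM. B2m, the light chain, was at 71.3 CPM in each PyMT-1099 LT library and at 224 and 211 CPM in MT∆Ecad. The peptide transporter genes Tap1 and Tap2 were higher too, Tap2 at 1.18 and 0.543 against 16.6 and 21.7 CPM. Class I heavy chain genes are near-identical copies and vary between mouse strains, so how reads were divided among them is uncertain. Cd274, the checkpoint ligand PD-L1, was lower in MT∆Ecad (8.9 and 9.26 against 0.292 and 0.517 CPM).

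Interferon-inducible GTPases were at least 2-fold higher for 5 of 9 tested members and lower for 1, Irgm1 (82.9 and 84.1 against 26.7 and 27.9 CPM). Gbp4 was at 0.646 and 0.571 against 18.4 and 15.4 CPM and Gbp2 at 2.48 and 1.8 against 25.4 and 23.8 CPM. The broader interferon-stimulated list was split, with 7 of 25 at least 2-fold higher and 6 lower . Trim30a (0.323 and 0.371 against 18 and 15.5 CPM), the RNA sensor Ifih1 and Ifit2 were higher, and Trim25, the ubiquitin ligase of the RIG-I pathway, was at 106 and 107 CPM in PyMT-1099 LT with no read in MT∆Ecad. Of 18 tested interferon receptors, STATs and IRFs, 4 were called higher and 8 lower (1 and 5 with at least a 2-fold difference). Irf1 (74.4 and 73.7 against 66.8 and 84.1 CPM) overlapped between lines and was not called, and Stat2 and Jak2 were lower in MT∆Ecad.

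The interferon-stimulated response element has a core of GAAA, any 2 bases and GAAA again. It was searched on both strands (on the other strand it reads TTTC, any 2 bases, TTTC) in windows from 250 bases before to 50 bases after annotated starts (RefSeq, GRCm38.p6). It was found for 3.99% of 27025 genes with a window and for 3.41% of the 9468 tested genes with one. In the interferon-stimulated list it was found for 7 of 20 tested genes with a window, among them 5 of 7 at least 2-fold higher and 0 of 6 at least 2-fold lower. In the GTPase list it was found for 6 of 7, including the lower Irgm1, and in the MHC class I list for 5 of 20, among them 3 of 10 at least 2-fold higher. A match describes these letters only. The stretches around the match are shown, 5′ to 3′ on the gene's strand and ending no later than the base before the start, for the genes with the largest differences that hold one upstream of the start; capitals mark the match. Ifih1 and Psme1 hold one past the start.
Trim30a (chr7:104465194-104465269, minus strand): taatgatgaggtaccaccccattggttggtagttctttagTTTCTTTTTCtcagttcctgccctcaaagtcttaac
Slfn9 (chr11:82991831-82991915, minus strand): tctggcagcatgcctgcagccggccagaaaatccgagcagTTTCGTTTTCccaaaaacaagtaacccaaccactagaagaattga
Gbp2 (chr3:142620564-142620653, plus strand): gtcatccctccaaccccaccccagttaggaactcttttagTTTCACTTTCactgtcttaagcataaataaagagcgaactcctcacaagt
Gbp7 (chr3:142530243-142530332, plus strand): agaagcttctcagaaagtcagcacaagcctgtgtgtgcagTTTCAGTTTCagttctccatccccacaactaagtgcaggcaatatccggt
Gbp3 (chr3:142559959-142560043, plus strand): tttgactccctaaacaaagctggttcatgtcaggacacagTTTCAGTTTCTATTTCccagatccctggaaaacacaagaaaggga
H2-T22 (chr17:36042884-36042973, minus strand): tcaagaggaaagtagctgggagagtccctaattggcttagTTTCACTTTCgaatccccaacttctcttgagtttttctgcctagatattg
B2m (chr2:122147508-122147597, plus strand): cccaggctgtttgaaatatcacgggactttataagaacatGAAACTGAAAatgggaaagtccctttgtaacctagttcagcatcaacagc

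Cytokine and inflammatory genes went both ways, with 14 of 29 at least 2-fold higher and 8 lower in MT∆Ecad (48.3% and 27.6%). Beside Cxcl12, the neutrophil chemokine Cxcl5 was at 0.108 and 0 CPM in PyMT-1099 LT and at 147 and 142 CPM in MT∆Ecad, the fractalkine gene Cx3cl1 at 28.9 and 27.6 against 232 and 247 CPM and the macrophage growth factor Csf1 at 230 and 231 against 1292 and 987 CPM. Il11, an IL-6 family cytokine, was lower (180 and 201 against 0.81 and 0.443 CPM), as were Lif and the monocyte chemokine Ccl2. The sensor of cytosolic DNA Aim2 was at 20.5 and 28.1 CPM against none, while Sting1 was at 1.29 and 1.4 against 19.7 and 23.6 CPM.

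Among regulators of p53 and the cell cycle, differences of over 30-fold were found at several loci. Mdm2, the ubiquitin ligase that degrades p53, was at 2696 and 2980 CPM in PyMT-1099 LT and at 79.3 and 76.6 CPM in MT∆Ecad, a 36.4-fold difference. Cdkn2a, the locus of p16 and Arf (53.8 and 59.3 against 0 and 0.111 CPM), and its neighbour Cdkn2b (46.3 and 51.8 CPM against none) were close to absent in MT∆Ecad, where the gene beside them, Mtap, was present and higher (235 and 212 against 677 and 651 CPM). The cyclin gene Ccnd2 (121 and 110 CPM) and the p53 target Pmaip1 (55.3 and 58.2 CPM) had no read in MT∆Ecad. Trp53 itself was slightly lower there (286 and 262 against 217 and 205 CPM, difference -0.37, adjusted p = 0.0326), and its target Cdkn1a was at 125 and 114 against 96 and 115 CPM and was not called. Of the 36 tested members of the list, 5 were at least 2-fold higher and 7 lower (13.9% and 19.4%, against 14.0% and 12.3% of all genes). The median of the list changed sign between alternatives. Few proliferation genes reached a 2-fold difference. Of 49 S-phase genes 0 were at least 2-fold higher and 1 lower, Gins1, and of 53 mitosis genes 2 were higher and 0 lower, against 14.0% and 12.3% of all tested genes.

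Nrf2 pathway genes were called in both directions. Of 41 tested Nrf2 pathway genes, 17 were called higher and 12 lower, and 10 and 3 with at least a 2-fold difference (24.4% and 7.32%; median 0.13). Among its members, the NADPH-producing enzymes G6pdx and Pgd of the pentose phosphate pathway were higher. G6pdx was at 122 and 129 against 447 and 478 CPM, Pgd at 172 and 163 against 557 and 583 CPM. Tkt, of the branch of that pathway that makes no NADPH, was at 257 and 270 against 804 and 947 CPM, and the isocitrate dehydrogenase Idh1 was also higher. Ptgr1 (0.0359 and 0 against 54.4 and 58.8 CPM) and Cbr1, both reductases, were close to absent in PyMT-1099 LT, and Pir was at 38.4 and 33.9 CPM there with no read in MT∆Ecad. Among established targets, Nqo1 was at 2.94 and 3.17 against 5.18 and 4.87 CPM, Txnrd1 at 457 and 421 against 859 and 738 CPM, both called, while Gclm (148 and 135 against 141 and 130 CPM) and Hmox1 were not called. Glutathione S-transferases and peroxidases were at least 2-fold higher for 10 of 22 and lower for 6, with Gsta4 at 5.13 and 4.57 against 276 and 241 CPM and Gsto1 at 509 and 506 against 169 and 191 CPM. Aldh3a1, which removes aldehydes of lipid peroxidation, was at 3.73 and 2.06 against 1682 and 1576 CPM. Close paralogs in these families can share reads, so single values are uncertain.

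Lipid enzymes of one family could differ in opposite directions. The desaturase Scd1 was at 0.466 and 0.486 CPM in PyMT-1099 LT and at 732 and 1005 CPM in MT∆Ecad, whereas the neighbouring gene of the same family, Scd2, was higher in PyMT-1099 LT by the values given above. Fads3 was at 341 and 289 against 0.551 and 0.517 CPM, the lipase Lpl had no read against 90.9 and 109 CPM, and the elongase Elovl6 was at 13.5 and 19.1 against 173 and 168 CPM. Of 28 cholesterol genes 17 were called higher in MT∆Ecad and 4 lower (8 and 3 with at least a 2-fold difference). The efflux pump Abca1 had no read in PyMT-1099 LT against 54.3 and 66.7 CPM. Glycolytic isoforms differed as well: the phosphofructokinase Pfkp was at 0.144 and 0.2 against 183 and 197 CPM, Ldhb had no read against 20.8 and 22.5 CPM, and Pgam1 was at 633 and 595 against 73.5 and 68.6 CPM.

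**Figure D3:**
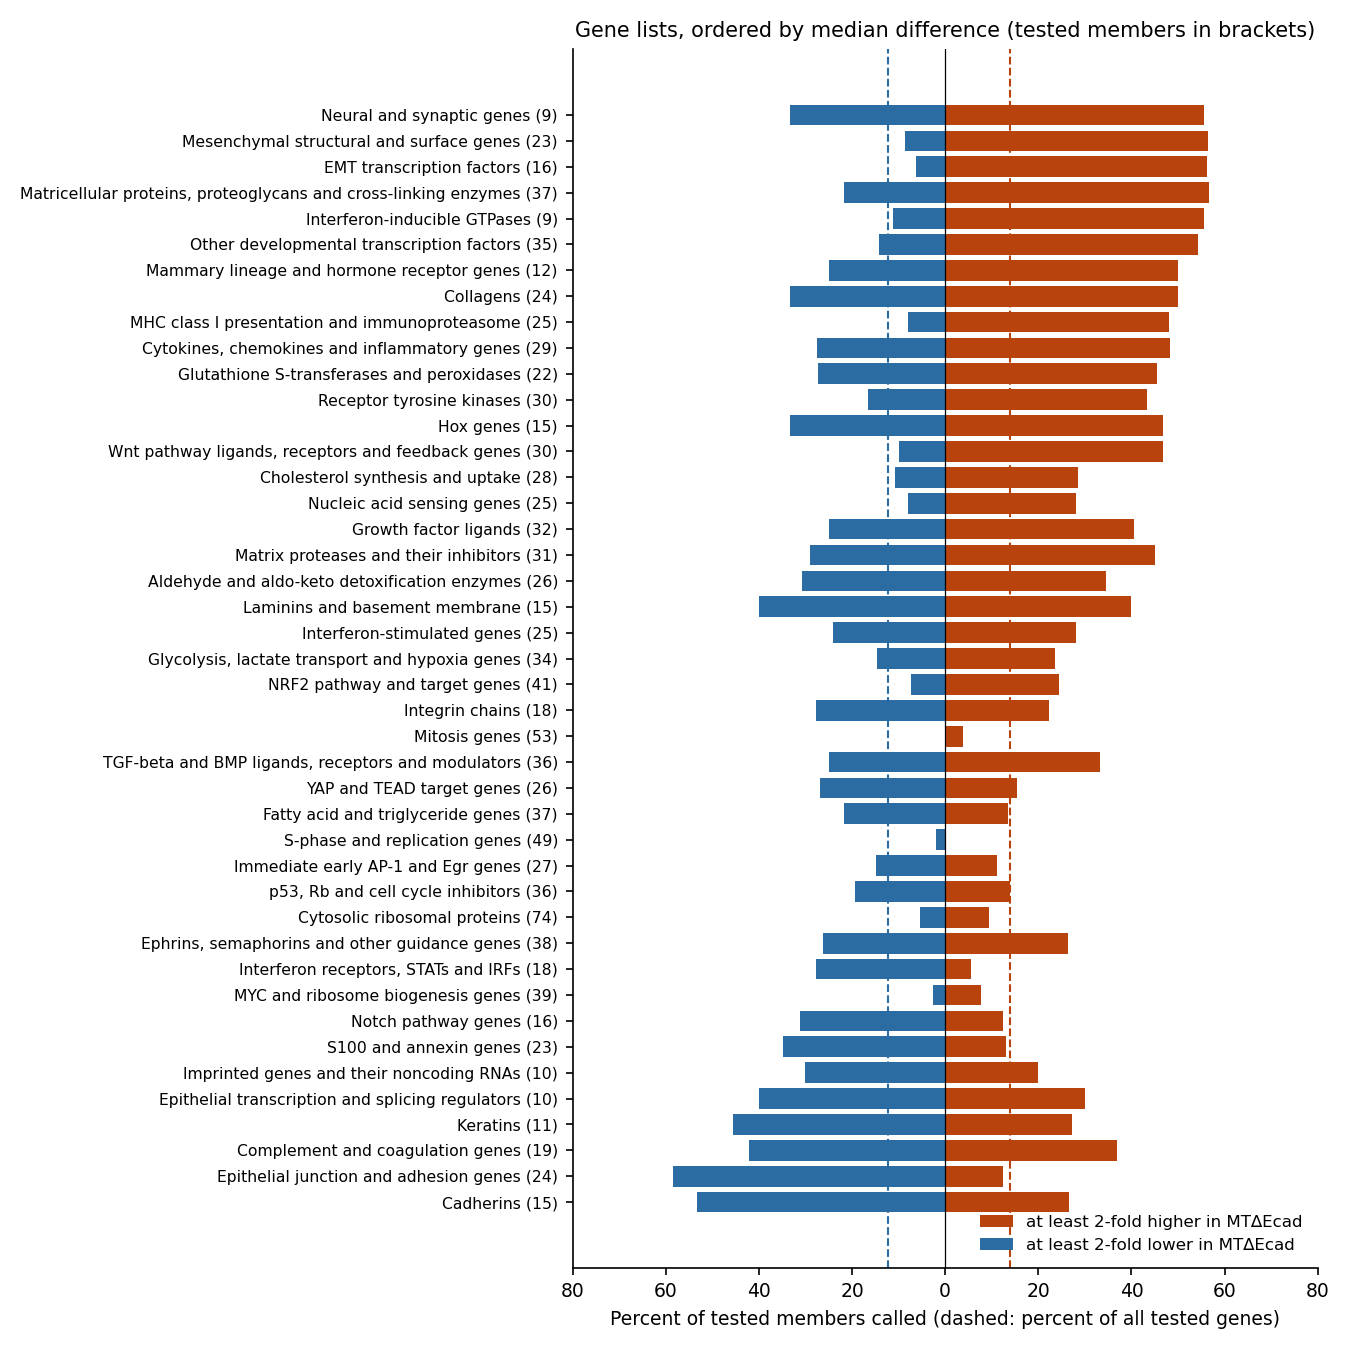
Share of tested members of each gene list called with at least a 2-fold difference, in percent, to the right for genes higher and to the left for genes lower in MT∆Ecad; numbers in brackets are tested members, lists are ordered by median difference, and dashed lines mark the share of all tested genes (14.0% and 12.3%). The mesenchymal, EMT factor and matricellular protein lists are among those that reach over 50% to the right. Junction genes and cadherins reach over 50% to the left, and S-phase and mitosis genes lie under the dashed lines on both sides.

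Called genes were not spread evenly over the genome. On chromosome 14, 170 of 377 tested genes (45.1%) were at least 2-fold higher in MT∆Ecad, with a median of 0.78; the other chromosomes had 8.44% to 22.1% higher, and their medians lay between -0.35 and 0.24. The chromosome 14 median lay between 0.79 and 0.90 with TMM scaling, median centring, edgeR and DESeq2, and it was 0.80 in the siNrf2 libraries. Positions come from RefSeq on GRCm38.p6, and the stretches that follow were picked after the values were seen, so no test is given; DNA was not measured here. A run was taken as at least 7 consecutive tested genes that were all called at least 2-fold different in one direction. There were 21 runs with 201 genes, 11 higher and 10 lower in MT∆Ecad, and 8 of them lay on chromosome 14. Of the runs, 2 hold families whose members share exons and therefore reads, so their genes are not separate measurements. All 22 genes of a run on chromosome 18, the chromosome with 22.1% higher, are gamma protocadherins. In a run on chromosome 1, 8 of 11 genes are Ugt1a genes.

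**Figure D4:**
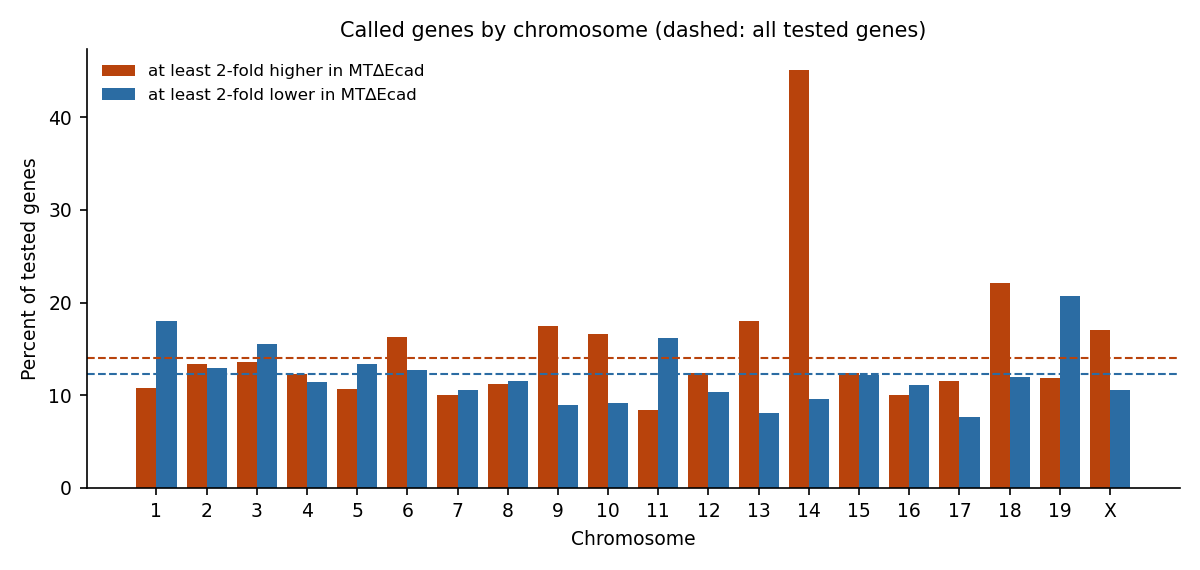
Percent of the tested genes of each chromosome (x axis) that were called at least 2-fold higher (red) or lower (blue) in MT∆Ecad; dashed lines mark all tested genes. Chromosome 14 stands at 45.1% higher, and chromosome 19 has the largest share of lower genes, 20.7%.

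On chromosome 14 the longest run held 17 genes from Chchd1 to Rps24 (chromosome 14, 20703027 to 24496960), with a median difference of 1.87. It includes Plau and Vcl, named above. Clu, on the same chromosome, was far lower in MT∆Ecad, so not every gene there was higher.

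On chromosome 10 a run of 7 genes within 0.539 Mb, Cpm, Mdm2, Slc35e3, Nup107, Rap1b, 4933411E08Rik and Mdm1 (chromosome 10, 117629500 to 118168999), was lower in MT∆Ecad by -5.71 to -2.86. Mdm2 was at 2696 and 2980 CPM in PyMT-1099 LT, and Nup107, a nuclear pore protein, at 2505 and 2400 against 121 and 108 CPM. Py2T LT had high levels of the same genes: Mdm2 at 1560 and 1812 CPM, Nup107 at 2397 and 2426 CPM, Rap1b at 1871 and 2128 CPM. The next tested genes before the run, Cpsf6 (127 and 152 against 157 and 160 CPM) and Yeats4 (37 and 31 against 38.6 and 40.1 CPM), were not called, and Frs2 beyond them was called higher (41 and 44.8 against 115 CPM in each MT∆Ecad library). The next tested gene after the run, Dyrk2, was also called lower (35.8 and 43.3 against 20.6 and 19.1 CPM, difference -0.96), and Py2T LT lay 2.83 above MT∆Ecad for it.

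On chromosome 5, runs of 12 genes from Cdk6 to Mterf1b (3341004 to 4197651) and of 11 genes from Cldn12 to Abcb1a (5505015 to 8748575) were lower in MT∆Ecad, with medians of -2.68 and -3.01. The tested genes between these runs, Fzd1 and Cdk14, differed by -0.46 and 4.14. Cdk6, a cell cycle kinase, was at 649 and 687 CPM in PyMT-1099 LT and at 189 and 155 CPM in MT∆Ecad, and Cyp51, a cholesterol synthesis enzyme, at 1786 and 1578 against 326 and 381 CPM. On chromosome 19, 11 genes from Glis3 to Ric1 (28258851 to 29605921) were lower with a median of -2.90. They include Jak2, the kinase of cytokine receptors, at 619 and 900 against 97.2 and 75 CPM, and Cd274. Further along chromosome 19, 4 runs between Frat2 and Scd4 (41845972 to 44346743) held 33 genes, with medians of -3.19 to -1.44, among them Pgam1, Zdhhc16 and Scd2. Genes between these runs did not all follow: Morn4 differed by 3.37, Pyroxd2 by 1.27 and Dnmbp by -0.47. In these chromosome 5 and 19 runs the medians of Py2T LT lay at -0.17 to 0.26 relative to MT∆Ecad. Jak2, for example, was at 83.3 and 116 CPM in Py2T LT. Single genes lay further off: Py2T LT was above MT∆Ecad by 5.99 for Abcb1a, 3.42 for Rundc3b, 3.18 for Marveld1 and 1.57 for Cldn12. For Ak3 it differed from MT∆Ecad by -1.98. Several genes named under pathways above, such as Jak2, Cd274, Pgam1, Cyp51, Plau and Mdm2, lie in these runs and differ in the same direction as their neighbours; how much of their difference is shared with the stretch was not tested.

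**Figure D5:**
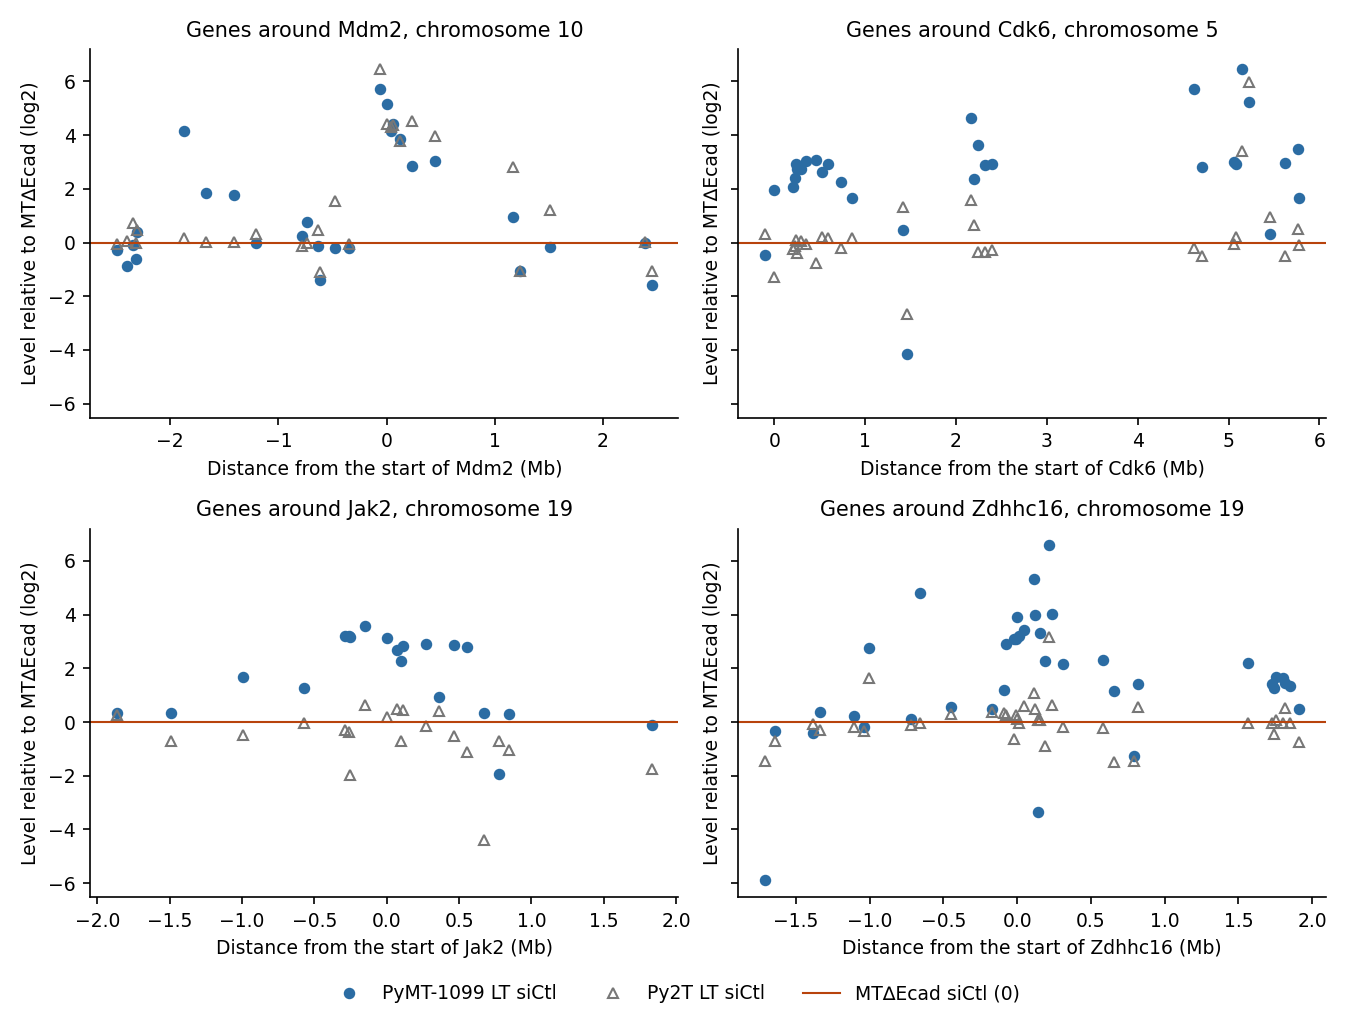
Levels of tested genes relative to MT∆Ecad (log2, y axis; 0 is MT∆Ecad) by distance in Mb from the start of Mdm2, Cdk6, Jak2 or Zdhhc16 (x axis), for PyMT-1099 LT (circles) and Py2T LT (triangles), control libraries. Around Mdm2 both lines lie above MT∆Ecad over the same genes. Around the other 3 genes PyMT-1099 LT lies above and Py2T LT is near 0 for most genes, with exceptions such as Cdk14 and Morn4, where PyMT-1099 LT lies below.

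The difference between the lines was measured again in 4 libraries that do not enter the control contrast, those transfected with siNrf2, within the same model. Both contrasts take the same SE for a gene from the fit of all 12 libraries. Deviations of same-numbered control and siNrf2 libraries of a line were also correlated (0.788 for PyMT-1099 LT, 0.639 for MT∆Ecad). The shares that follow are therefore not an independent measurement. There, 1786 genes (15.0%) were called at least 2-fold higher and 1538 (13.0%) lower in MT∆Ecad. Of the 1665 genes at least 2-fold higher in the control libraries, 1548 (93.0%) were so in the siNrf2 libraries, which is 86.7% of the genes called there. Of the 1466 lower genes 1320 (90.0%) were so, which is 85.8%. The sign was opposite for 2 of the higher and 3 of the lower genes. Cdh1 differed by -5.42, Serpinh1 by 10.76 and Mdm2 by -5.16. Some Nrf2 targets had smaller values there: Txnrd1 differed by 0.86 with the control siRNA and -0.22 with siNrf2, Srxn1 by 0.78 and 0.03, and Gclc by 0.50 and -0.08. These are single genes. The median of the 41 Nrf2 pathway genes was 0.13 with the control siRNA and -0.03 with siNrf2. Other lists moved as well, such as S-phase genes (-0.03 and -0.40) and Myc and ribosome biogenesis genes (-0.23 and -0.62). Whether these contrasts differ was not tested here.

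Levels in Py2T LT, the other MMTV-PyMT line, were set beside both. Among the 1665 genes at least 2-fold higher in MT∆Ecad, the mean log2 level in Py2T LT control libraries was nearer to PyMT-1099 LT for 935 and nearer to MT∆Ecad for 730. Among the 1466 lower genes it was nearer to PyMT-1099 LT for 541 and nearer to MT∆Ecad for 925. These are levels with no test. Cdh1 was at 12.5 and 15.2 CPM in Py2T LT, below PyMT-1099 LT and above MT∆Ecad. For Axl (1415 and 1338 CPM), Fgfr1 (339 and 324 CPM), H2-D1 (166 and 151 CPM) and Notch1 (53.4 and 59.3 CPM) Py2T LT lay near MT∆Ecad, and for Lamb3 (936 and 824 CPM), Jag1 (409 and 399 CPM), Trim25 (109 and 113 CPM) and Cdkn2a (53.9 and 54.9 CPM) near PyMT-1099 LT. For Acta2 (0.169 and 0.189 CPM) and Col3a1 (0.337 and 0.297 CPM) it lay below both. Of the 133 genes without a read in PyMT-1099 LT, 16 had none in Py2T LT either, and of the 86 without a read in MT∆Ecad, 24 had none in Py2T LT.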

How the data were processed

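RNA of the control-siRNA libraries of MT∆Ecad and PyMT-1099 LT (n = 2 each) was compared. Per the labels' protocols, ribosomal RNA was depleted, stranded libraries were made with an Illumina kit and single reads were sequenced on a NextSeq 500. The submitters' processing notes name STAR and mm10; the counting tool, annotation and use of strand are not given in the sources used here. Values of overlapping genes and of near-identical copies are therefore uncertain. The authors deposited CPM for 24454 Entrez genes; low values are whole multiples of 1 read, and 100% of values gave whole reads within 0.01 of a read. Symbols came from RefSeq GRCm38.p6 (24374 IDs) and GENCODE (7); 73 had no match.

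Genes with at least 1 CPM in 2 or more of the 4 libraries were tested on log2(CPM + 1) with limma 3.58.1 (R 4.3.3), with trend, fitting all 12 libraries as 6 group means and adjusting over 11871 genes. The fit was tested on simulated data. All simulated libraries were independent, so this does not cover the correlated deviations of replicates given below. No batch is labelled. Alternatives included edgeR 4.0.16 and DESeq2 1.42.0 on the recovered counts. The comparison and its gene lists (no set test was made) were chosen with earlier results of these data known. Named genes are Cdh1, Erbb2, Nfe2l2 and Keap1, the 12 largest called log2 differences in each direction with a proper symbol, no overlap and a mean of at least 10 CPM in the higher line, the 8 largest CPM differences in each direction, and up to 4 called members of each list in each direction with at least 2 CPM in the higher line; further members account for lists. Genes of chromosome runs were named after their values were seen. Some members of the lists are not reported here.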

Additional observations from a re-analysis of the deposited data

How the results depend on the processing

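Over 16 alternatives for the control libraries and 2 pseudocounts for the siNrf2 libraries, the counts of called genes stayed within 1.5 times of those reported, except that 969 genes were at least 2-fold lower with a pseudocount of 5, which shrinks differences of low genes, against 1466. Leaving out 1 library gave 2676 to 2837 genes called higher, 3002 to 3155 lower, 1621 to 1683 at least 2-fold higher and 1448 to 1489 at least 2-fold lower; the lone library was assumed to vary like the others. edgeR gave 1824 and 1579 genes at least 2-fold higher and lower, and DESeq2 1843 and 1545. Of the genes at least 2-fold different, 1643 of 1665 higher and 1440 of 1466 lower remained called in the same direction under every alternative that tested them. Of 351 named genes, 13 lost their call under at least 1 alternative (Ccne2, Cd44, Col1a2, Dusp5, Ect2, Keap1, Krt80, Maml2, Myc, Nuf2, Pkp3, Stat3, Tyk2) and 0 reversed. The medians of 9 lists changed sign.

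The labels do not say that a replicate number marks a shared day or batch. Deviations of same-numbered control libraries of the compared lines correlated at -0.124, so these were not taken as paired. Those of Py2T LT and PyMT-1099 LT control libraries, which share the fit, correlated at 0.614. Between control and siNrf2 libraries of the same line the correlation was 0.788 for PyMT-1099 LT and 0.639 for MT∆Ecad. The main fit treats all libraries as independent, which these values call into question. A fit with the replicate block gave 3522 higher and 4032 lower, and with the numbers crossed in the block, an alternative added after seeing the data, 3647 and 4285. At 27088970 to 35005191 reads a count of 0 allows up to 0.111 CPM, and genes under the minimum of 1 CPM were tested only in the alternative with no filter.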

Other observations

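Beyond the genes given with the tissue check, PyMT-1099 LT held transcripts of several genes known from kidney tubule, some also from other tissues. They were noticed among the genes lower in MT∆Ecad, and the set of 22 genes was drawn up after these values were seen, so it has no test of its own. Pkhd1, the fibrocystin gene, was at 81.1 and 77.8 CPM in PyMT-1099 LT, the tight junction gene Cldn2 at 243 and 255 CPM and Bicc1, an RNA-binding gene of cystic kidney, at 204 and 223 CPM, each at most 0.292 CPM in MT∆Ecad. In Py2T LT, Hnf4a, Pax2, Cdh16 and Pkhd1 had no read, whereas Cdh6 was at 119.6 and 128.5 CPM.

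The pattern was not complete. Of the 22 genes 13 were tested, 11 were called lower in MT∆Ecad and 1, Pax8, higher (1.11 and 1.77 against 2.59 and 3.62 CPM), and Cubn was not called. Umod, Slc34a1, Emx2 and Nphs1 had no read in PyMT-1099 LT, and Wt1, Aqp2, Lhx1 and Slc12a3 were under 1 CPM.

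The immediate early gene Egr1 was at 226 and 66.7 CPM in the MT∆Ecad libraries and at 4.81 and 1.2 CPM in those of PyMT-1099 LT (difference 5.12, SE 0.942), so the replicates of each line lay over 3-fold apart while the lines did not overlap.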
